A study of Mus musculus with 3 samples.

Results

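The 43 genes described here encode the vacuolar ATPase, the Ragulator and Rag GTPases that sit beside it on the lysosome, the kinase complex mTORC1 with its direct controls, the transcription factors TFEB, TFE3 and MITF, and the lysosomal calcium channel TRPML1. They were taken by gene symbol from the annotation in the deposited transcript tables and joined by gene identifier to the gene tables, where all 43 were found among 55536 genes. The cells were C57BL/6J mouse macrophages cultured from bone marrow. Lipid A, the endotoxin component sensed by Toll-like receptor 4, was given at 100 ng/ml for 12 h, removed for 12 h, and given again at 100 ng/ml for 10 min. Cytosolic RNA without ribosomal RNA was sequenced in 3 libraries of this single group, numbered replicates 1, 2 and 3, which share 1 donor identifier, and sex and age were not collected. Untreated, once-treated and nuclear RNA were not analysed here. The values below are therefore levels in restimulated cells, not responses to Lipid A.

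The vacuolar ATPase is a rotary proton pump. Its cytosolic V1 sector burns ATP, its membrane V0 sector carries protons into the lysosome, and the sectors can come apart and rejoin. Ragulator anchors the Rag GTPases to the lysosomal surface, close to the pump. When amino acids are plentiful the Rags recruit mTORC1, which Rheb then switches on. Active mTORC1 phosphorylates TFEB, TFE3 and MITF and holds them in the cytosol, and when it is off these factors enter the nucleus and bind short E-box sequences at genes of the lysosome and of the pump itself.

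Levels are given as TPM, transcript abundance scaled to a fixed library total, which corrects for transcript length. Means carry the SD between libraries (n = 3). The libraries held 31968675, 53094481 and 57070432 expected counts over genes. All 10 macrophage marker genes on the list used were above 1 TPM in every library, from Mrc1 at 20.6 ± 4.40 to Lyz2 at 2989 ± 197 TPM. Replicate 1 stood apart before any result below: the summed TPM of 5 nuclear-retained RNAs was 1435 there against 133 and 170.3 in replicates 2 and 3, and nuclear-encoded protein-coding genes took 34.3% of its TPM against 27.8% and 27.8%. Several counts and calls are therefore also given without it, and many levels are given by library. P-values between libraries measure only the spread between these 3 libraries, which may be technical.

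Nearly the whole pathway was present. Of the 43 genes, 37 reached at least 1 TPM in every library, against 41.4% of 22028 protein-coding genes. The count was 38 without replicate 3 and 37 without either of the others. In all, 29 genes had a mean of at least 10 TPM and 8 had a mean of at least 100 TPM, counts given without an all-gene share. The median of the 43 genes was 30.3 TPM, against 8.73 TPM for the protein-coding genes that reached 1 TPM in every library. The 6 genes that missed that level were Atp6v1b1, Atp6v1c2, Atp6v1g2, Atp6v0a4, Atp6v0e2 and Rragb, each of which has a relative in the same position of its complex with a mean above 10 TPM. Together the 43 genes made up 0.597%, 0.674% and 0.621% of the expected counts of replicates 1, 2 and 3.

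**Figure D1:**
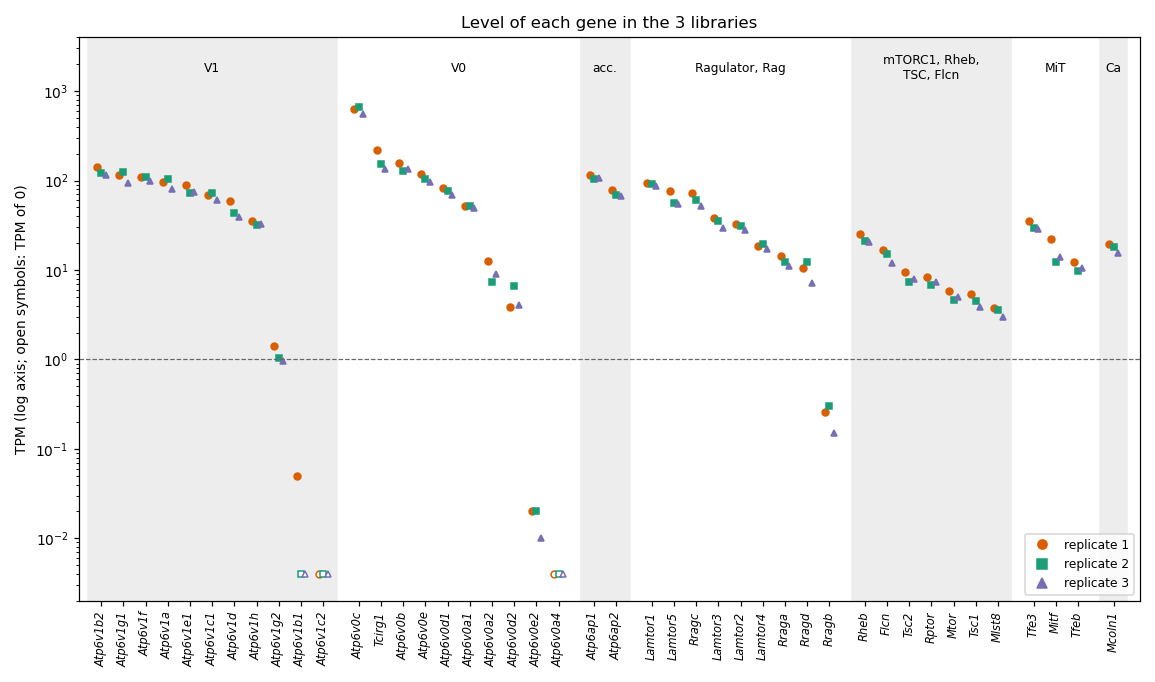
TPM of each of the 43 genes (log vertical axis) in replicates 1, 2 and 3, grouped by complex and ordered by mean within each; acc. stands for accessory proteins, MiT for the transcription factors, Ca for the calcium channel, and open symbols at the bottom mark a TPM of 0. The V-ATPase subunits reach from Atp6v0c at 617 TPM on average down to genes at 0, while the mTORC1 group lies between 3.42 and 22.3 TPM.

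The complexes differed in level in the same order in each library, apart from one exchange. Median levels were 90.2 ± 6.31 TPM for the 2 accessory proteins, 67.5 ± 6.04 for the 11 V1 subunits, 63.5 ± 4.10 for the 10 V0 subunits and 30.3 ± 2.33 for the 9 Ragulator and Rag genes. They were 16.1 ± 5.33 TPM for the 3 transcription factors and 7.53 ± 0.82 for the 7 genes of the mTORC1 group. The V1 and V0 medians differed by less than the SD of either. The pump thus lay above the complex that holds mTORC1, and that complex above mTORC1 itself, in 3 of 3 libraries. The exchange concerned the transcription factors and the single channel gene Mcoln1: the factors had the higher median only in replicate 1, where Mitf was high. Without replicate 1 the median of the factors was 13.1 TPM, below Mcoln1 at 16.8.

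In V1, the subunits A and B form the ring that hydrolyses ATP. Atp6v1a, the catalytic A subunit, stood at 96.5, 102.9 and 81.0 TPM in replicates 1, 2 and 3. Atp6v1b2, the B subunit of most cells, stood at 141.6, 121.7 and 115.8 TPM and was the highest V1 gene. The stators E and G hold that ring in place, and their genes had 78.3 ± 8.74 TPM for Atp6v1e1 and 112 ± 15.0 TPM for Atp6v1g1. Of the remaining subunits, Atp6v1f in the central stalk had 105 ± 6.64 TPM and Atp6v1c1, whose protein links the sectors and is released when they part, had 67.5 ± 6.25. Atp6v1d, the rotor shaft, had 47.3 ± 11.1 TPM, and Atp6v1h, which silences the detached V1 sector, had 33.1 ± 1.67.

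Ordered by mean, every V1 gene from Atp6v1b2 down to Atp6v1c1 overlapped its neighbour in range over the libraries. Atp6v1d lay below Atp6v1c1, and Atp6v1h below Atp6v1d, with no overlap. These levels count all transcripts of a gene. A retained intron transcript, described below, held 55.5%, 52.2% and 47.4% of Atp6v1d TPM in replicates 1, 2 and 3. The coding mRNA of Atp6v1d alone was not placed in this order. Subunits A, B, E and G are present in several copies per pump, the others in 1 copy. The leading genes for the former had a median of 103 TPM and a range of means from 78.3 to 126, against 57.4 TPM and 33.1 to 105 for subunits C, D, F and H. These ranges overlapped, because Atp6v1f lay above Atp6v1a and Atp6v1e1.

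V0 held the most abundant gene of all 43. Atp6v0c encodes the proteolipid c, of which many copies form the rotating membrane ring, and it had 637.2, 658.8 and 556.4 TPM, 24.9% of the summed mean TPM of the 43 genes. An annotated pseudogene of it, Atp6v0c-ps2, was given 75.7, 66.0 and 62.4 counts by the same tables, against a mean of 46973 for Atp6v0c. The related ring subunit Atp6v0b had 140.2 ± 13.7 TPM and the small membrane subunit Atp6v0e 106 ± 11.5. Atp6v0d1, which joins the ring to the central stalk, had 76.0 ± 7.05 TPM. Below Atp6v0b no V0 gene overlapped the next in range over the libraries.

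The a subunit, which forms the proton channels against the ring and directs the pump to a membrane, is encoded by 4 genes. Tcirg1, the a3 gene typical of lysosomes in macrophages and osteoclasts, had 220.2, 151.5 and 135.1 TPM. Atp6v0a1 had 51.4, 52.4 and 49.2 TPM and Atp6v0a2 12.6, 7.35 and 9.06. Atp6v0a4, the form of kidney intercalated cells and the inner ear, was listed with 0 counts throughout, where 3 counts in a library would make at most 0.055 TPM. Tcirg1 thus led in every library, with 77.5%, 71.7% and 69.9% of the TPM of the position.

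The ratio of Tcirg1 to Atp6v0a1 was 4.28 in replicate 1 and 2.89 and 2.75 in the others. On the log2 scale with 0.1 TPM added, it was 1.69 ± 0.35, with replicate 1 above both others. Tcirg1 exceeded Atp6v0a2 by 4.12 ± 0.23 on this scale and Atp6v0a4 by at least 3976-fold, taken against 3 counts in each library. Atp6v0a1 exceeded Atp6v0a2 by 2.42 ± 0.40.

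For most other positions a single gene took nearly all the signal. At position B, Atp6v1b1, the form of kidney and ear, had 1 count in replicate 1 and 0 in the others, and Atp6v1b2 exceeded it 12130-fold by counts summed over the libraries and divided by effective transcript length (exact 95% interval 2177 to 479096, counting error only). At position C, Atp6v1c2 had 0 counts, so Atp6v1c1 was at least 857-fold higher. At position G, Atp6v1g2, known from neurons, had 1.41, 1.03 and 0.95 TPM, and Atp6v1g1 took 99.0% ± 0.19 of the position. Atp6v1g2 overlaps Nfkbil1 on the other strand over 2133 bases, and Nfkbil1 had a mean of 565 counts against 88.7 for Atp6v1g2; without a stated strand setting their reads cannot be told apart.

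At position d the split was less one-sided. Atp6v0d2, a form known from osteoclasts and some macrophages, had 3.83, 6.60 and 4.01 TPM, against 83.3, 75.4 and 69.2 for Atp6v0d1. Its share of the position was 4.40%, 8.04% and 5.48%, highest in replicate 2, and the log2 ratio of Atp6v0d1 to it was 3.99 ± 0.46. At position e, Atp6v0e2 had 6 counts over the 3 libraries, and Atp6v0e exceeded it 5800-fold on the same length-corrected sums (exact 95% interval 2664 to 15808).

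Among 8 osteoclast markers, 7 stayed under 1 TPM in every library, including the fusion genes Dcstamp, at a mean of 0.04 TPM, and Ocstamp, with 1 count over the 3 libraries. Calcr had 0 counts. Nfatc1 was the exception at 12.0 ± 1.12 TPM. All 5 kidney intercalated cell markers and all 5 melanocyte markers stayed under 1 TPM, with at most 0.007 and 0.10 TPM on average. Of 5 neuronal markers, Syn1 had 3.61 ± 0.17 TPM and the others stayed under 1 TPM. Neutrophil, lymphocyte and fibroblast markers, 16 genes in all, were under 1 TPM in every library.

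**Figure D2:**
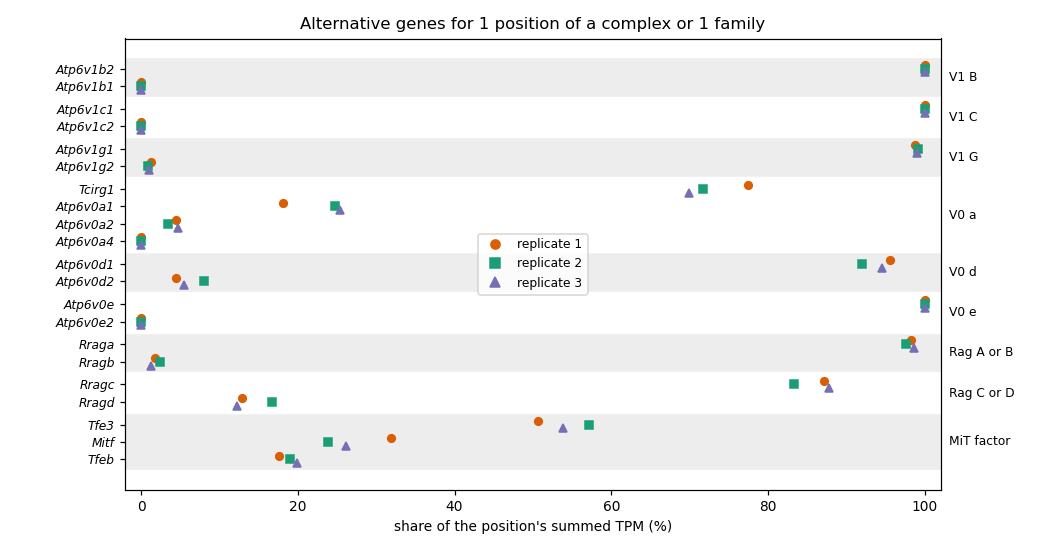
Share of the summed TPM of a position (horizontal axis, %) taken by each alternative gene in replicates 1, 2 and 3. Tcirg1 holds 69.9% to 77.5% of position a, Rragc 83.3% to 87.8% of its pair and Tfe3 50.6% to 57.1% of the transcription factors, while positions B, C, G and e lie near 0 or 100%.

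The accessory proteins assist the assembly and sorting of the pump. Atp6ap1 had 109 ± 6.88 TPM and Atp6ap2, also known as the prorenin receptor, 71.4 ± 5.89, so both lay at the level of the core subunits.

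Ragulator is a scaffold of 5 proteins. Lamtor1, which carries the lipid anchor to the lysosome, was its highest gene at 93.1, 91.0 and 87.5 TPM. Lamtor5 followed with 75.7, 56.6 and 54.9 TPM. The dimer partners Lamtor2 and Lamtor3 had 30.3 ± 2.33 and 34.2 ± 4.35 TPM, which overlapped in range. Lamtor4 had 18.5 ± 1.23 TPM, the least of the 5 and below Lamtor2 in every library, although its protein pairs with Lamtor5.

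Rag GTPases act as dimers of A or B with C or D. Rraga had 14.4, 12.4 and 11.2 TPM and Rragb, the form known from brain, 0.26, 0.30 and 0.15. Rragc had 72.3, 60.5 and 51.9 TPM and Rragd 10.6, 12.1 and 7.22. Rag A therefore took 98.2% ± 0.52 of its pair and Rag C 86.1% ± 2.43 of the other. The C and D genes summed to more TPM than the A and B genes in every library. Rraga lay above Rragd within each library, although their ranges overlapped.

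mTORC1 is built of the kinase mTOR, the substrate adaptor Raptor and mLST8. Mtor had 5.87, 4.66 and 5.05 TPM, Rptor 8.44, 6.86 and 7.28 and Mlst8 3.73, 3.55 and 2.99. Each had its highest TPM in replicate 1, as did 73.8% of 9122 protein-coding genes at 1 TPM in every library. On the scaled counts described below, Mtor and Rptor were highest in replicate 3 and Mlst8 in replicate 2. By TPM, Mlst8 lay below Mtor in every library. Rheb, the GTPase that activates the kinase, was the highest of this group at 22.3 ± 2.58 TPM. The genes of its inhibitor, the tuberous sclerosis complex, were lower, with 4.61 ± 0.81 TPM for Tsc1 and 8.26 ± 1.08 for Tsc2. Flcn, whose product folliculin acts on Rag C and D and directs mTORC1 to TFEB and TFE3, had 14.5 ± 2.30 TPM. The Tsc2 value is uncertain: its deposited bounds of 9.75 to 43.1 TPM in replicate 1 lay above its own value of 9.48, likewise in the other libraries, and it overlaps Pkd1 on the other strand over 693 bases. Atp6v0c also lay above its bounds in every library, by less: 613.4 to 628.1 TPM against 637.2 in replicate 1.

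Tfe3 was the leading factor of the family. It had 35.2, 29.1 and 28.6 TPM, against 22.2, 12.2 and 13.9 for Mitf and 12.2, 9.69 and 10.6 for Tfeb. The order Tfe3, Mitf, Tfeb was the same in 3 of 3 libraries. The log2 ratio of Tfe3 to Tfeb was 1.51 ± 0.08, the steadiest of the family, and that of Tfe3 to Mitf was 0.98 ± 0.29. Mitf exceeded Tfeb in each library, but the lowest Mitf value, 12.19 TPM, lay below the highest Tfeb value, 12.21, so their ranges overlapped. Mcoln1, which encodes the calcium channel TRPML1 whose current activates the phosphatase that frees TFEB, had 19.6, 18.1 and 15.6 TPM.

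All 16 comparisons of alternative genes pointed the same way in 3 of 3 libraries. Exact two-sided sign-flip tests on the log2 ratios gave p = 0.25 for each, the smallest that 3 libraries allow, and 0.25 after Benjamini-Hochberg adjustment over the 16, so none could pass a threshold of 0.05.

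Further genes of the pathway were read from 5 lists with 67 genes, of which 59 reached 1 TPM in every library. Among 13 V-ATPase isoforms and assembly factors, 11 did; Rnasek, a small pump-associated protein, led with 111 ± 2.85 TPM, Oxr1 had 22.7 ± 3.43, and the isoforms Atp6v1e2 and Atp6v1g3 had 0 counts. Among 18 amino acid sensing genes, 17 did, with a median of 3.30 TPM. Sec13, a GATOR2 subunit that also serves vesicle coats, had 31.2 ± 0.63 TPM and the sestrin Sesn1, a leucine sensor, 26.3 ± 2.21. At the low end were the GATOR2 subunit Mios at 1.33 ± 0.07 and the arginine sensor Castor1 at 0.56 ± 0.04 TPM.

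Of 15 mTOR partners and outputs, 12 reached 1 TPM in every library; Akt1s1, the mTORC1 inhibitor PRAS40, had 14.3 ± 2.38 TPM and Mapkap1, an mTORC2 subunit, 13.1 ± 1.26, while Rhebl1 and Prr5 lay at 0.42 ± 0.06 and 0.18 ± 0.09. All 11 genes of folliculin partners, TFEB control and lysosomal channels did. Fnip2, a folliculin partner, had 100.0, 79.8 and 58.8 TPM, above Flcn in every library, and the calcineurin subunit Ppp3r1 had 37.8 ± 4.77. Zkscan3, a repressor of autophagy genes, and the channel Mcoln3 were lowest at 5.62 ± 1.73 and 5.80 ± 1.79 TPM.

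Of 10 target genes known for TFEB or MITF, 8 reached 1 TPM in every library. Gpnmb, a lysosomal glycoprotein, stood at 1640, 1766 and 1328 TPM and Sqstm1, an autophagy adaptor, at 248, 299 and 190 TPM, both highest in replicate 2. Ctsk and Oscar, which also stood among the osteoclast markers above, were the lowest of the 10 at 0.80 ± 0.23 and 0.007 ± 0.006 TPM. Outside the naming rule and chosen after their values were seen, the fourth member of the factor family, Tfec, had 8.01 ± 0.45 TPM, and the channel relative Mcoln2 had 32.4 ± 2.90, above Mcoln1 in every library.

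The pathway varied between libraries, though by modest amounts. Counts were scaled by edgeR's TMM factors, which align libraries on most genes, and a chi-square test per gene asked whether a gene departed from a single rate. Of the 39 genes that passed edgeR's count filter, 33 varied more than counting error allows (adjusted p under 0.05), where 71.4% of 12515 genes tested did. At this depth small differences pass such a test, so the size matters more. The coefficient of biological variation estimates the spread beyond counting error as a fraction of the level. edgeR draws each gene's value toward that of other genes, so it is not the measured spread of that gene alone. Its median was 0.132 over the 39 genes and 0.172 over all genes tested. The coefficient lay under the all-gene median for 34 of the 39. The 39 genes were not matched to the others by level, and members with few counts had high coefficients, 0.359 for Rragb and 0.320 for Atp6v1g2. Whether the lower median goes beyond the level of these genes was not tested.

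Without replicate 1, 27 of 39 varied, where 40.4% of 12697 genes did, and the medians were 0.094 and 0.105. The call ended for 7 genes (Atp6v1d, Atp6v0a1, Atp6ap2, Lamtor1, Lamtor5, Mlst8 and Tsc2) and began for Rraga. Without replicate 2, 25 of 39 varied, where 58.2% of genes tested did, and without replicate 3, 26 of 39, where 61.5% did; both counts lie near the background. Rptor and Rheb had among the lowest estimated coefficients, 0.113 and 0.113, under which 0.58% and 0.89% of the genes tested lay. Neither passed the chi-square test (adjusted p = 0.291 and 0.283 with edgeR scaling). Atp6v1e1, Atp6v1g2, Rraga and Rragb did not pass it either.

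Which library was highest depended on the scale. On deposited TPM, 29 of the 37 genes at 1 TPM in every library were highest in replicate 1, where 73.8% of 9122 protein-coding genes at that level were. Another 8 were highest in replicate 2 and 0 in replicate 3, where 17.7% and 8.17% of those genes were. After TPM was rescaled to nuclear-encoded protein-coding genes, 5 were highest in replicate 1, 24 in replicate 2 and 8 in replicate 3, against 35.0%, 40.2% and 24.9% of the same 9122 genes. The TPM count in replicate 1 thus lay near the background. On TMM-scaled log2 CPM (counts scaled to a fixed library total), 9 of 39 were highest in replicate 1, where 40.3% of genes tested were, and 22 of 39 in replicate 2, where 33.8% of genes tested were. The median difference of replicate 1 from the mean of the others was -0.06 log2 over the 39 genes and -0.01 over all genes tested.

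Individual genes went further in each direction. Mitf was 0.48 log2 higher in replicate 1 than in the mean of the others, at 6.95 against 6.37 and 6.57 log2 CPM (adjusted p = 2.9e-74 with edgeR scaling, and 1.8e-11 between replicates 2 and 3 alone). Atp6v0a2 and Tcirg1 were 0.32 and 0.22 higher there. In the other direction, Atp6v0a1 was 0.45 lower in replicate 1, and its adjusted p went from 4.0e-119 to 0.0992 once replicate 1 was left out. Atp6v0d2 was 0.69 lower, at 3.71 against 4.74 and 4.06 log2 CPM, and still varied between replicates 2 and 3 (adjusted p = 3.9e-29). In all, replicate 1 lay within 0.25 log2 of the mean of the other libraries for 33 of 39 genes. Over all 12515 genes tested, the lower and upper quartiles of this difference were -0.22 and 0.25 log2. The 39 genes were not matched to the others by level, so whether they departed less than other genes was not tested.

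The a subunit genes thus moved apart on the TMM scale, counted over all transcripts: Tcirg1 and Atp6v0a2 were higher in replicate 1 and Atp6v0a1 lower. For Tcirg1, transcripts outside the protein-coding class took 26.9%, 8.95% and 6.16% of TPM in replicates 1, 2 and 3. Whether its coding mRNA rose in replicate 1 was not tested. Atp6v0a2 had 6.51, 6.02 and 6.37 log2 CPM, lowest in replicate 2. It still varied between replicates 2 and 3 (chi-square test, adjusted p = 7.9e-26). On deposited TPM, Atp6v0a1 was level, at 51.4 in replicate 1 against 52.4 and 49.2. The nuclear-retained RNAs moved with replicate 1 as given above, and their part in these differences was not tested.

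**Figure D3:**
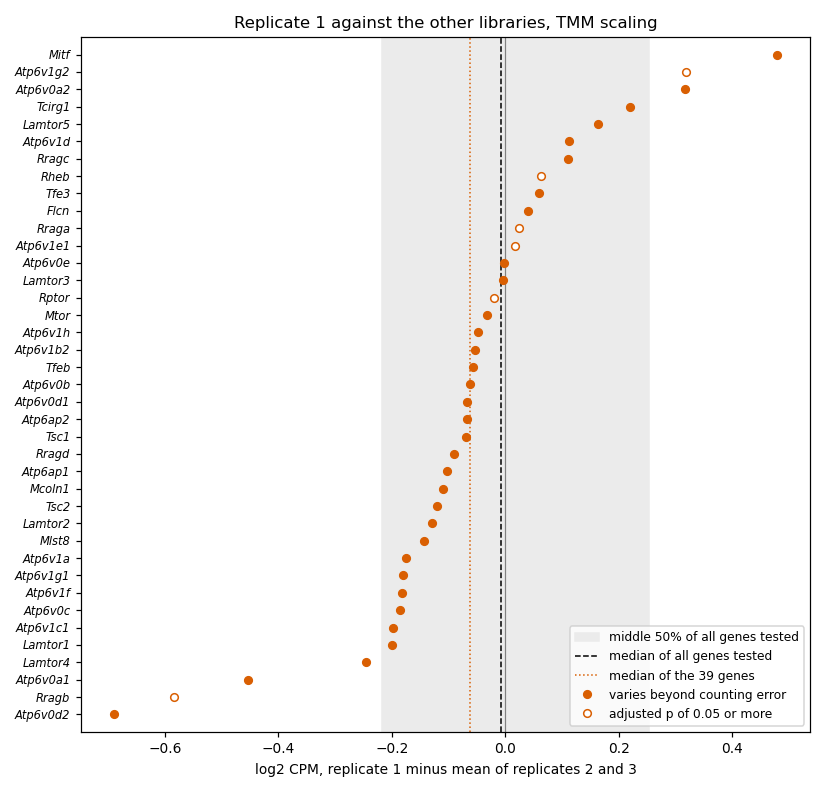
Log2 CPM of replicate 1 minus the mean of replicates 2 and 3 (horizontal axis) for the 39 genes that passed the count filter, with TMM scaling; filled circles varied beyond counting error between the 3 libraries, the grey band is the middle 50% of all genes tested, and lines mark the medians. Mitf lies farthest right at 0.48 and Atp6v0d2 farthest left at -0.69.

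Transcript tables split each gene into its annotated transcripts. In 37 of the 39 genes with at least 10 counts, the leading transcript was of the protein-coding class, and in 20 it held at least 90% of the gene's TPM. No share over all genes stands beside these counts, so they describe these genes only. The second quantification, a deposited table with kallisto column names, named the same leading transcript for 33 of 39. The exceptions were Atp6v1g2, Rragb, Rptor, Tsc2, Flcn and Tfeb, whose split between transcripts is uncertain.

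Atp6v1d was led by a transcript that the annotation calls retained intron. Atp6v1d-202 is 775 bases long and held 55.5%, 52.2% and 47.4% of the gene's TPM in replicates 1, 2 and 3, and 61.1% ± 2.47 in the second quantification. By expected counts it held only 14.7% ± 2.31, since TPM divides by length and the full mRNA Atp6v1d-201 is 3667 bases long. Of its 775 bases, 87 at the 5′ end lie in an intron and the other 688 are shared with Atp6v1d-201. The bases that tell them apart, on the minus strand of mm10 at chr12:78845285-78845334 for Atp6v1d-202, are shown with the shared exon in capitals, intron before it in the first line and the previous exon in the second.
Atp6v1d-202: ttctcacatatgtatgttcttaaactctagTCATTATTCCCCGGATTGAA
Atp6v1d-201: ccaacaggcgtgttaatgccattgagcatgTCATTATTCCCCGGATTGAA

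Rptor was the other exception. The main table gave 47.1% ± 1.41 of its TPM to Rptor-211, of the nonsense-mediated decay class, and 24.7% ± 2.80 to the protein-coding Rptor-201. The second quantification gave 5.75% ± 6.04 and 64.5% ± 8.01 to the same transcripts. The tables disagree by more than the spread between libraries, so no leading transcript can be named.

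Transcripts of any class other than protein coding, such as retained intron or nonsense-mediated decay, took a higher share in replicate 1. Among 31 genes at 1 TPM in every library with such a transcript, the median share was 4.60%, 1.48% and 1.76% in replicates 1, 2 and 3. It was highest in replicate 1 for 25 of the 31, where 70.7% of 7545 such protein-coding genes were. Over all of those the medians were 8.09%, 2.70% and 2.57%, so the genes of this pathway moved with the rest at a lower level. The second quantification put 28 of the 31 highest in replicate 1. No share over all genes was computed for it, so that count describes these genes only.

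Tcirg1 showed the widest gap: 26.9% of its TPM was in such transcripts in replicate 1, against 8.95% and 6.16%. One of them, Tcirg1-207, had 1796 expected counts in replicate 1, the shallowest library, and 91.5 and 107 in the others. Atp6v0a1 had 26.6%, 11.9% and 10.4%, Tsc1 20.0%, 3.08% and 5.21% and Tsc2 24.0%, 8.75% and 14.5%. Flcn had 15.6%, 3.42% and 4.72% and Mcoln1 14.0%, 2.38% and 3.08%. In each of these genes replicate 1 lay above both other libraries. Atp6v1d was also highest in replicate 1, with a smaller gap for its level, at 57.3%, 52.2% and 47.4%. Replicate 1 was not the highest for Atp6v1c1, Atp6ap1, Atp6v0b, Lamtor2 and Rptor, and Rragd was at 0 in each library. Malat1, a nuclear-retained RNA, had 1333, 118 and 152 TPM, and its part in this shift was not tested.

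**Figure D4:**
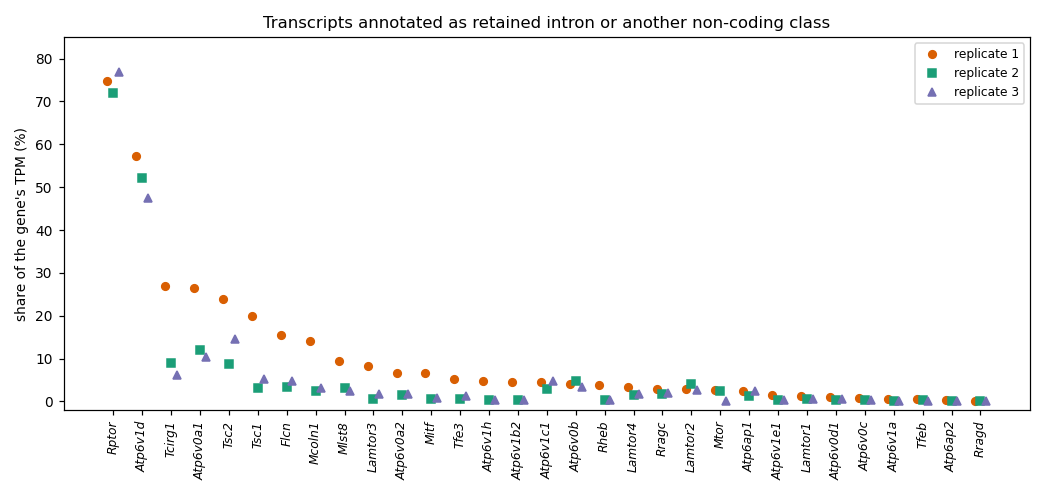
Share of each gene's TPM (%) in transcripts annotated with a class other than protein coding, in replicates 1, 2 and 3, for the 31 genes that have one and reached 1 TPM in every library. Replicate 1 lies highest for 25 of them, by most for Tcirg1, while Rptor and Atp6v1d are high in all libraries.

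Several genes can start at more than one place. Mitf is the best known: alternative first exons spread over a long stretch give forms used in different cells, and the most downstream gives the melanocyte form. Transcripts from the most upstream start, at position 97807052 of chromosome 6 (mm10, plus strand), held 85.7%, 82.0% and 82.1% of Mitf TPM and 96.2% ± 0.49 of its expected counts. The melanocyte-type transcript Mitf-201, whose start lies 184.7 kb downstream, had 0 counts in every library, and the second quantification, described above, gave it 1.22% ± 1.03 of TPM. A short transcript near it, Mitf-208, took 15.999% ± 1.78 of TPM on 119, 165 and 205 counts. That was 3.52% ± 0.37 of the counts, and the second quantification gave Mitf-208 6.40% ± 2.78 of TPM. Joined as 1 start, Mitf-201, Mitf-205 and Mitf-208 held 14.1%, 17.5% and 17.7% of TPM in replicates 1, 2 and 3. By expected counts that start held 3.68% ± 0.45.

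Mitf also has an exon with an optional 18 bases at its start, which add amino acids next to the DNA-binding domain. Among transcripts that cross it, those with the 18 bases held 80.6%, 79.3% and 76.8% of TPM and 94.2% ± 0.76 of counts. The second quantification gave 71.5% ± 3.88. The inserted bases, at chr6:98006123-98006140, are in capitals, between the end of the preceding exon and the start of the common part.
Mitf with the longer exon: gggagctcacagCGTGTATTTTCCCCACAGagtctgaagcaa
Mitf with the shorter exon: gggagctcacagagtctgaagcaa

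Atp6v0a1 has an exon of the same length, and here the shorter form led. Transcripts with the 18-base exon at chr11:101049459-101049476 held 11.7%, 5.22% and 14.8% of the TPM of those that cross the site, lowest in replicate 2, and 9.23% ± 3.73 in the second quantification. The leading Atp6v0a1-202 lacks it and held 61.7% ± 3.64 of the gene's TPM. Capitals mark the exon in the first line.
Atp6v0a1 with the short exon: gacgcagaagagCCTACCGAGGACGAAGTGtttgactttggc
Atp6v0a1 without the short exon: gacgcagaagagtttgactttggc

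Tfeb was split between distant starts. The most upstream transcript, Tfeb-202, held 36.6%, 49.2% and 52.9% of TPM, and Tfeb-212 with its neighbour Tfeb-201, 48.7 kb downstream, held 51.6%, 47.8% and 46.3%. The second quantification gave 56.7% ± 20.0 and 23.3% ± 1.81, so the use of both starts was seen in each table but their order was not resolved. For Tfe3, 8 transcripts from the most upstream cluster held 29.2% ± 2.01 of TPM and 4 transcripts that begin 1.38 kb downstream held 70.0% ± 2.40. The second quantification had 35.9% ± 1.70 and 63.0% ± 0.82, in the same order.

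**Figure D5:**
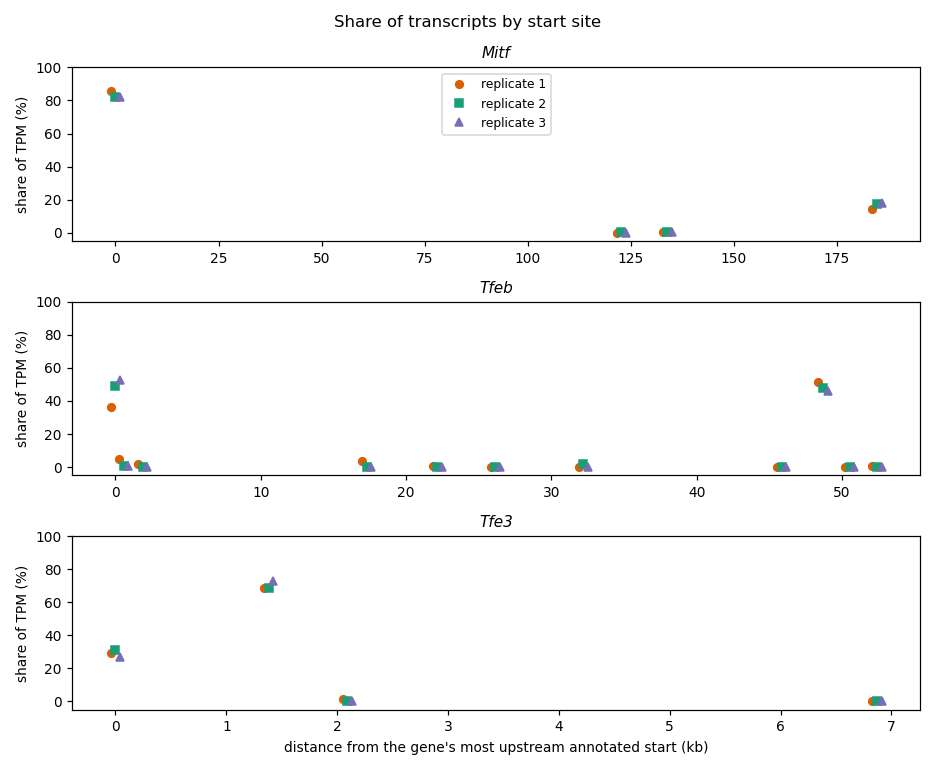
Share of TPM (vertical axis, %) of transcripts from each annotated start, by distance from the most upstream start in kb, for Mitf, Tfeb and Tfe3 in replicates 1, 2 and 3; symbols are offset sideways to be seen. Mitf lies at 82.0% to 85.7% at its first start, Tfeb is split between a first start and one 48.7 kb away, and Tfe3 is highest at 1.38 kb.

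Smaller splits remained among protein-coding forms. The leading transcript held 69.0% ± 5.27 for Rragd (Rragd-203), 42.1% ± 2.57 for Mlst8 (Mlst8-201) and 46.3% ± 4.59 for Tsc1 (Tsc1-201), where Tsc1-202 had 42.8% ± 4.87. Flcn-203 and Flcn-202 held 52.7% ± 2.70 and 37.1% ± 5.24 of Flcn, and Tsc2-201 and Tsc2-221 held 45.6% ± 5.87 and 25.1% ± 3.60 of Tsc2. Atp6v1g2-201 held 61.2% ± 6.24 on at most 83.9 counts, and the split of Rragb, 51.3% ± 28.3 for Rragb-202, rested on a mean of 24.3 counts per library. Tcirg1-201 held 64.8%, 85.5% and 87.1%, and Atp6v0d2-201 held 100% in each library.

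The factors of the family bind the E-box CACGTG, and the CLEAR element of lysosomal genes holds it with fixed bases on either side. RefSeq promoters of GRCm38.p6, from 250 bases before to 50 after a start, were given for 36 of the 43 genes. The 6 letters CACGTG, which read the same on both strands, were in 10 of the 36 (27.8%). They were in 12.6% of 7277 other genes at 1 TPM in every library and in 8.09% of all 27025 genes with an entry. The longer TCACGTGA, a subset of the CACGTG matches, was in 4 of 36 (11.1%), against 2.54% and 1.12%. GTCACGTG or its reverse CACGTGAC was in 5 of 36 (13.9%), against 5.47% and 2.55%. The genes with CACGTG were Atp6v1a, Atp6v0b, Atp6v0d1, Atp6v0e, Lamtor1, Lamtor4, Rragb, Rragc, Rheb and Mcoln1, so they spread over V1, V0, Ragulator, the Rags and Rheb. No binding was measured here, and a match only describes the letters.

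Shown are the windows with TCACGTGA, with the second site of Mcoln1, and those of the c-ring subunit Atp6v0b, of Rheb and of Rag C for comparison. Each has CACGTG in capitals with 12 bases on either side, in the direction of transcription.
Mcoln1, chr8:3500436-3500465, plus strand: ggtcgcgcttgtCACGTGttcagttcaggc
Mcoln1, chr8:3500462-3500491, plus strand: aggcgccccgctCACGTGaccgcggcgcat
Atp6v0d1, chr8:105566050-105566079, minus strand: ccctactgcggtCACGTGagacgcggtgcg
Atp6v0e, chr17:26676387-26676416, plus strand: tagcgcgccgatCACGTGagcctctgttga
Atp6v1a, chr16:44139373-44139402, minus strand: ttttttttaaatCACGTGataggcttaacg
Atp6v0b, chr4:117887348-117887377, minus strand: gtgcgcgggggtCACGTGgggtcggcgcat
Rheb, chr5:24842440-24842469, minus strand: gccgcgcgcggtCACGTGggtgtgttgttg
Rragc, chr4:123917309-123917338, plus strand: ggtgattccgggCACGTGatagtaccactt

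In Mcoln1 the sites began 71 and 45 bases before the RefSeq start. They began 131 bases before it in Atp6v1a, 96 in Rheb, 112 in Rragc and 36 in Atp6v0b, which has a second 18 before it, and within 3 bases of it in Atp6v0d1 and Atp6v0e. The 10 genes with CACGTG had a median of 68.8 TPM, and the 26 others with a promoter entry had a median of 13.6 TPM. Their mean levels overlapped, from 0.24 to 140.2 TPM with the letters and from 0 to 617 TPM without, and the difference in medians was not tested. The 26 included Atp6v1b1, Atp6v1c2, Atp6v1g2, Atp6v0a4 and Atp6v0e2, which missed 1 TPM. Both medians leave out the 7 genes without an entry: Atp6v1b2, Atp6v1c1, Atp6v1g1, Atp6v1h, Atp6v0a2, Atp6v0d2 and Lamtor3. The gap thus depends on which genes had an entry. Rragb, with 3 matches, was the lowest of the genes that hold it. Tcirg1 and Atp6v0c, the highest genes of V0, had none in this window.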

How the data were processed

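The authors deposited expected counts and TPM per gene and per transcript, with column names that RSEM writes, made from transcriptome alignments on mm10 and GENCODE M21, per the file headers and notes. The deposited percent of each transcript in its gene differed from the shares computed here from TPM by at most 1.70 points, as TPM is rounded. A further transcript table holds deposited estimated counts and TPM, with column names that kallisto writes. The sources used here give no versions, filters or strand setting. Rows without an Ensembl mouse gene identifier, 0.082% to 0.435% of expected counts, were left out; these reads were almost all the phiX control.

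The members and gene lists were chosen with earlier results of these data known. Text names all 43 members, the 2 highest and 2 lowest of each other list, and for transcripts the leading one where it is not protein coding or a second held at least 25%, with those of Mitf, Tfeb, Tfe3, Tcirg1 and Atp6v0d2. Atp6v0a1 transcripts were chosen after their values were seen. Expected counts were rounded for edgeR 4.0.16 in R 4.3.3 (filterByExpr, TMM, prior count 2, Benjamini-Hochberg adjustment), tested on simulated data. Starts within 500 bases were joined. Alternatives included DESeq2 1.42.0 size factors and leaving out each library. A planned comparison of protein sequences was not run.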

Additional observations from a re-analysis of the deposited data

How the results depend on the processing

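All 16 ratios of alternative genes kept their direction under every alternative tried: a pseudocount of 1, counts not divided by length, the second quantification and each library left out. Counts of genes at 1 TPM, genes varying and genes led by a protein-coding transcript stayed within 1.5 times. The varying count fell to between 25 and 27 of 39 when a library was left out, against 33, where 40.4%, 58.2% and 61.5% of all genes tested varied without replicates 1, 2 and 3. Median TPM over the genes reaching 1 TPM was 85.9 for V1 and 91.2 for V0. The back-transformed mean of log2(TPM + 1) was 24.4 for V1, 27.9 for V0 and 21.5 for Ragulator and the Rags. TPM of the second quantification, which has another denominator, gave medians of 31.0 for V1, 30.1 for V0, 39.3 for the accessory proteins, 13.6 for Ragulator and the Rags, 3.31 for the mTORC1 group and 8.71 for the factors. Put on the protein-coding share of the main table, an alternative chosen after seeing the data, these were 68.5, 65.4, 85.1, 29.5, 7.03 and 17.3. The median departure of replicate 1 was -0.17 log2 without a filter on low counts, and TCACGTGA in place of CACGTG left 4 promoters. Leading transcript shares moved by more than the SD in 25 of 39 genes with the second quantification. No paired analysis was possible because there is a single group.

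Depth limits Atp6v1g2 and Rragb, with means of 88.7 and 24.3 counts, and 16 of the 43 genes overlap another annotated gene, so reads near those ends may be shared.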
